A study of Mus musculus with 4 samples.

Results

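The genes of the myostatin, follistatin and activin pathway were examined for Pax7 occupancy in mouse muscle progenitors. The genes are Mstn, Gdf11, Fst, Acvr2a, Acvr2b, Inhba and Smad7, 7 in all. A ChIP-seq peak was assigned to a gene when its summit, the position of highest signal within the peak, lay between 100 kb before the start and 100 kb after the end of that gene in the GENCODE annotation of the mouse genome build NCBIM37 (mm9). This rule took 23 of the 20579 Pax7 peaks, and no peak was shared between these genes.

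The cells were iPax7 muscle progenitors, which derive from mouse embryonic stem cells that carry a doxycycline (Dox)-inducible Pax7 cDNA as a single copy beside Hprt. Dox was added at 1 µg/ml from day 3 of differentiation, PDGFRα+FLK1- cells were sorted on day 5, and the cultures were harvested on day 9, after 6 days of Dox. There were 2 Pax7 ChIP libraries and 2 libraries of input chromatin, and all of them carried the transgene and received Dox, so the list holds no condition without Pax7 induction and no comparison between conditions. The authors merged the replicates before calling peaks, so a peak has no replicate error and no p-value between samples could be computed. The number of reads behind each peak is not in the list. Pax7 came from a transgene in these cells, and RNA was not analysed here, so neither the expression of the 7 genes nor the muscle progenitor label could be checked against marker genes.

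Myostatin (Mstn) and its close relative Gdf11 are secreted ligands of the TGF-β superfamily, and myostatin restrains the growth of skeletal muscle. Both ligands, like the activins, bind type II activin receptors at the cell surface, which recruit type I receptors that phosphorylate Smad2 and Smad3, and follistatin binds and neutralises these ligands outside the cell. Pax7 is a transcription factor of muscle stem and progenitor cells with a paired domain and a homeodomain, each of which can contact DNA.

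The sequences at which the results turn are given first, as the summit with 50 bases to either side, written 5′ to 3′ on the plus strand of NCBIM37. They comprise the peak of highest fold enrichment at each gene, every further peak with a Pax motif, and the peaks next to the Mstn start, which were added with their values known. Peaks at Smad7 are described without sequence. The motifs searched on both strands were GTCACG, the core that the paired domain contacts, ATTAGTCAC or ATTAGTCAT, which joins letters of a paired site to a homeodomain site, and TAAT facing ATTA across 2 bases, a homeodomain dimer. E-boxes (CAGCTG), AP-1 sites (TGACTCA or TGAGTCA), Runx sites (TGTGGT), Tead sites (GGAATG) and a control (GCACTG) were searched in the same way. The first pair of Pax motifs can overlap, since ATTAGTCAC followed by G also holds GTCACG.

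Both Mstn peaks next to the gene's start lay in its first intron. The capitals mark a single homeodomain site (TAAT or, on the other strand, ATTA) in the first sequence (chr1:53119592-53119692), an E-box at the summit of the second (chr1:53120287-53120387) and 3 single homeodomain sites in the third (chr1:53144012-53144112), which belongs to the strongest Mstn peak, downstream of the gene. Single homeodomain sites are marked only in sequences without another of these motifs, the control aside, and the same letters also stand unmarked in other sequences. They were added after the sequences had been seen and are common: TAAT was within 50 bp of the summit in 13 of the 23 peaks (56.5%), beside 64.7% of all peaks and 46.5% of windows 500 bp to the right of them.
Mstn intron, nearer to the start: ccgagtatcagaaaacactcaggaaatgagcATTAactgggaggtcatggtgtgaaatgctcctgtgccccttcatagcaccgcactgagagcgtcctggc
Mstn intron, farther from the start: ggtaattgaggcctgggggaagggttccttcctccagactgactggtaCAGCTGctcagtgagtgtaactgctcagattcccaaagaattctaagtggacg
Mstn downstream: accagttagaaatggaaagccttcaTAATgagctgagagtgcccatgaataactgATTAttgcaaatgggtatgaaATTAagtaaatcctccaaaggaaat

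The strongest peak of all 7 genes lay upstream of Gdf11 (chr10:128414822-128414922), where the capitals mark ATCACG, which differs from the paired core in its first letter and was looked for only after the sequence had been seen. ATCACG was in 1 of the 23 peaks (4.35%), beside 1.73% of all peaks.
Gdf11 upstream: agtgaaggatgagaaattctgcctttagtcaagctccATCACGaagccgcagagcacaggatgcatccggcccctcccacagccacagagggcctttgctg

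Among the Fst peaks, the strongest (chr13:115152396-115152496) held ATTAGTC, the first letters of the joined motif, then a Runx site read on the minus strand and an AP-1 site. ATTAGTC was likewise added after the sequences had been seen, and was in 2 of the 23 peaks (8.70%), beside 4.14% of all peaks. Another (chr13:115168860-115168960) held the whole joined motif, ATTAGTCAC, on the minus strand. These are the capitals below.
Fst downstream, strongest: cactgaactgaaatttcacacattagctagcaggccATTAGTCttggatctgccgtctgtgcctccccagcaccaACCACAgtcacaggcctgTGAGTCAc
Fst downstream, joined motif: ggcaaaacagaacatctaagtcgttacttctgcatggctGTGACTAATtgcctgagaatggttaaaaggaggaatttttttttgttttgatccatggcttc

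The strongest peak near Acvr2b (chr9:119231954-119232054), at the promoter of its neighbour Oxsr1, held 2 paired cores on the plus strand, in capitals, and the first of them overlaps TGACGTCA, the letters of a cAMP response element. Of the peak at the promoter of Xylb, only 26 bases around its paired core are shown (chr9:119266616-119266641), with the core read on the minus strand.
Acvr2b upstream, at Oxsr1: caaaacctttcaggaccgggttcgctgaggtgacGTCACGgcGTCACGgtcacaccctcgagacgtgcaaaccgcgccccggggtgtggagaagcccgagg
Acvr2b upstream, at Xylb: attcccgcctCGTGACtccagtccag

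Pax7 peaks were unevenly spread over the pathway. Smad7, the inhibitory Smad that feeds back on the receptors, had 7 peaks, Mstn had 6, Gdf11 had 4, and Fst and Acvr2b had 3 each. Inhba, which encodes the βA subunit of activin A, and Acvr2a, a type II activin receptor, had none. Of 22350 protein-coding genes, 75.2% had at least 1 peak within 100 kb, and 5 of the 7 genes did. The median of the 7 genes was 3.00 peaks, against a median of 2.00 and an upper quartile of 4.00 over all coding genes. Within 25 kb there were 7 peaks, 4 at Mstn and 3 at Smad7. The share of all coding genes with a peak within 25 kb is not given here, so this count has no background beside it.

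**Figure D1:**
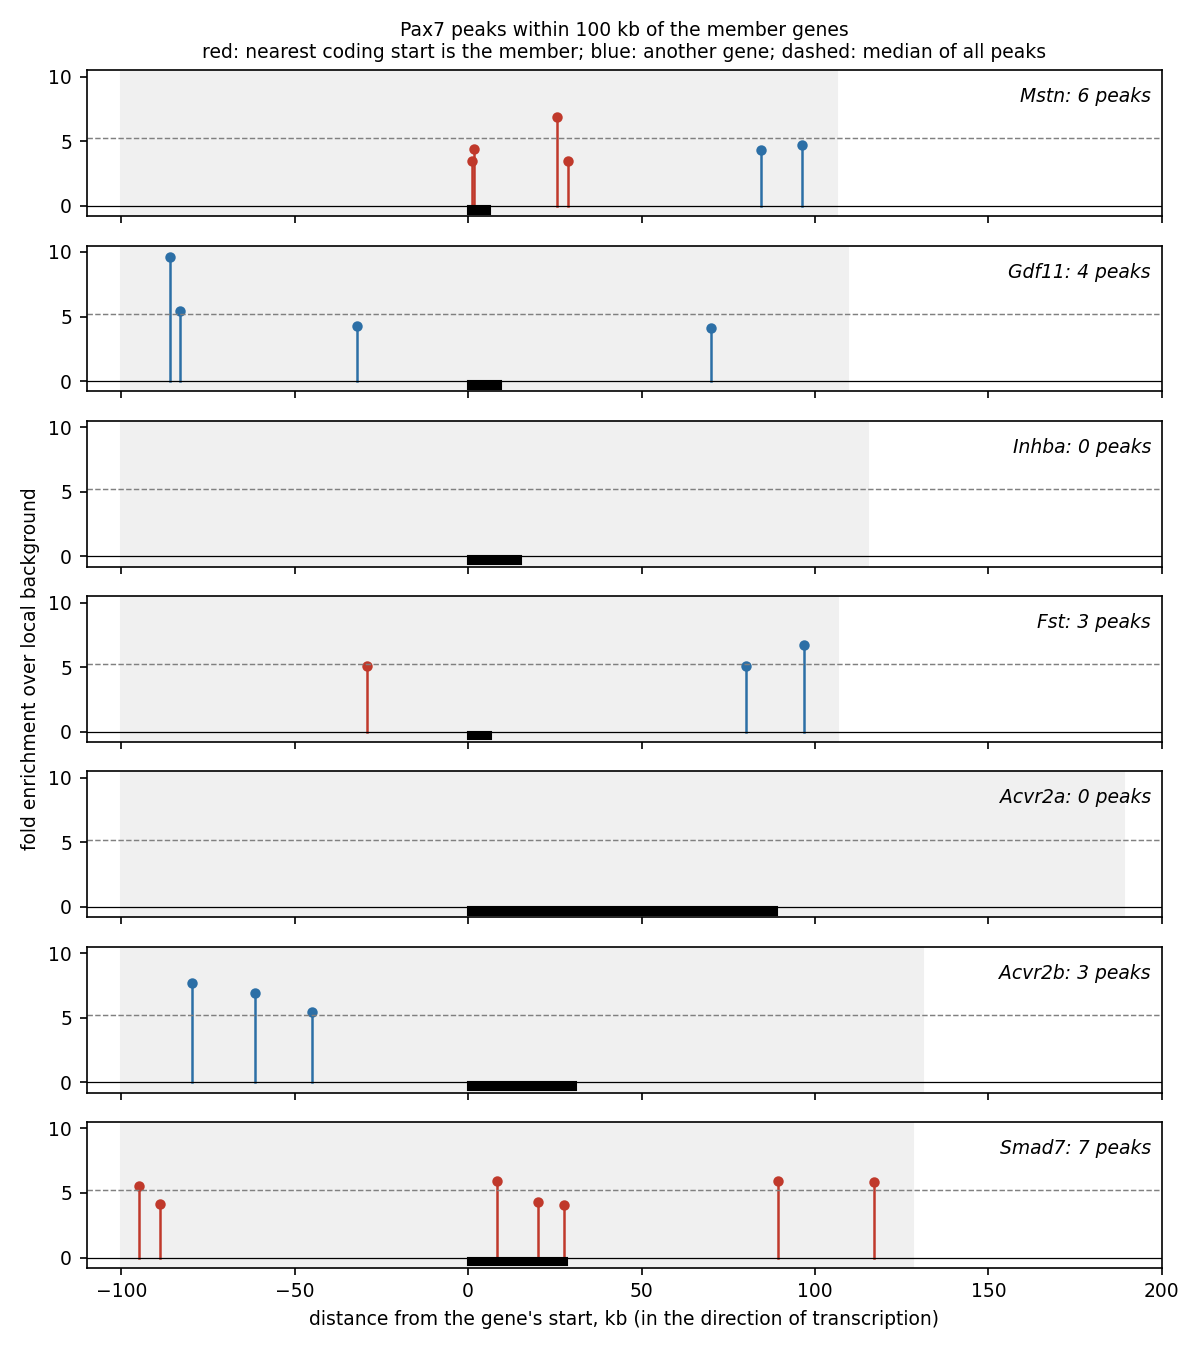
Each panel plots the Pax7 peaks of one gene by the distance of the summit from the gene's start in kb (x axis, in the direction of transcription) and by fold enrichment over local background (y axis), with the gene as a black bar, the window in grey and the median of all peaks, 5.22, as a dashed line. Red peaks are nearest to a coding start of the gene itself and blue ones to that of another gene: all 7 peaks of Smad7 and 4 of the 6 of Mstn are red, while no peak of Gdf11 or Acvr2b is.

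Counts depend on the size of each window, so the number of peaks per 100 kb of window was compared with that of all coding genes, whose median was 0.916. Smad7 had 3.06 peaks per 100 kb and 95.8% of coding genes had a lower density, and Mstn had 2.91, above 94.4% of coding genes. Gdf11 had 1.91 per 100 kb, Fst had 1.45 and Acvr2b had 1.30, above 80.9%, 69.8% and 63.3% of coding genes. In the raw count, 12.2% of coding genes had as many peaks as Mstn or more, and 7.58% as many as Smad7 or more. Counting peaks of any strength, Smad7 and Mstn thus lay in the upper part of the distribution and the other genes nearer to its middle or at 0. The place of Mstn rested on weak peaks. At a fold enrichment of at least 5 it had 1 peak, while Gdf11 had 2, Fst and Acvr2b had 3 each and Smad7 had 4.

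None of the 23 peaks reached 10-fold enrichment, and 1 of them, upstream of Gdf11, was in the top 10% of the list. Fold enrichment is the authors' ratio of ChIP signal to local background at the summit. At the 23 peaks it ran from 3.44 to 9.59, and its median was 5.06. From the order of the values, counting alone places this median between 4.36 and 5.83, an interval whose coverage is below 95%. Over the whole list fold enrichment ran from 1.60 to 28.0, and its median was 5.22. At least 5-fold enrichment was found in 13 of the 23 peaks, 56.5% (95% Wilson interval 36.8 to 74.4), beside 54.9% of all peaks, so the share is near the background. The share of peaks of at least 10-fold was 0 of 23 (interval 0 to 14.3%), beside 6.99% of all peaks. Counted by gene, 15.0% of coding genes had a peak of at least 10-fold within 100 kb. The −log10 of the q-value, the authors' measure of significance, had a median of 10.7 at the 7 genes and 11.6 over the list.

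**Figure D2:**
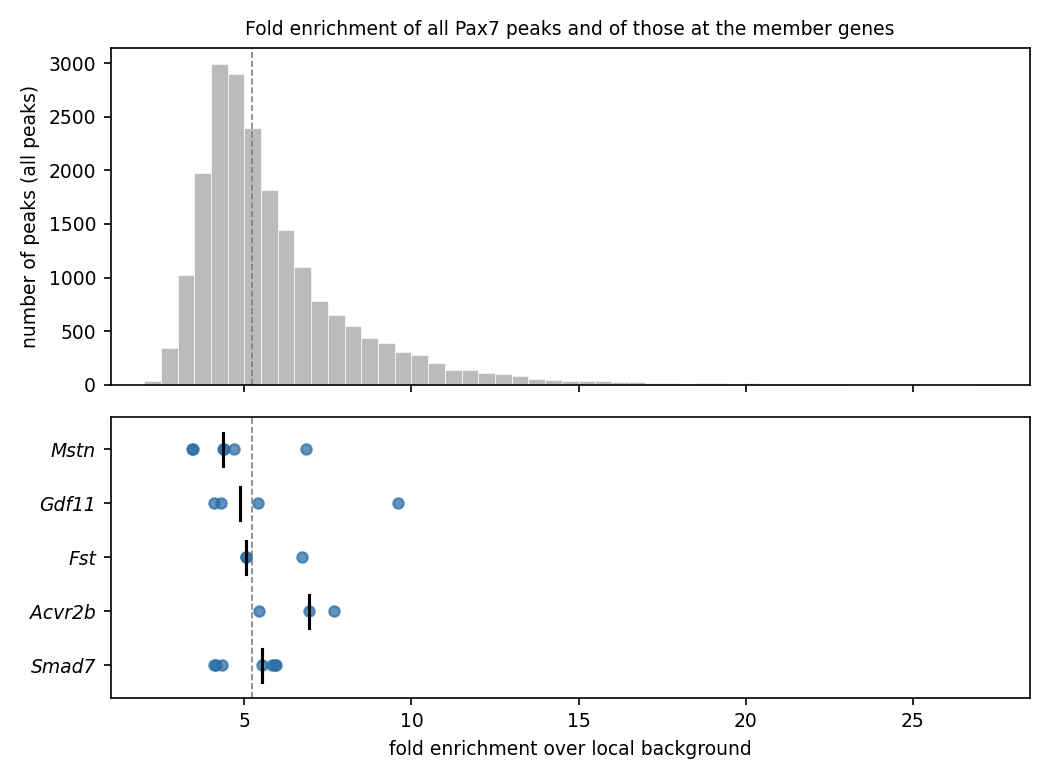
The upper panel shows the number of all Pax7 peaks (y axis) by fold enrichment over local background (x axis), and the lower panel shows each peak of the 5 genes that have any as a point on the same axis, with the gene's median as a vertical bar and the median of all peaks, 5.22, as a dashed line. The 3 peaks near Acvr2b all lie above the dashed line, and 5 of the 6 peaks at Mstn lie below it.

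Of the ligand genes among the 7, Mstn had Pax7 peaks inside the gene, while Gdf11 and Inhba had none there. Mstn lies on chromosome 1 from 53118507 to 53124923 on the plus strand and has 3 exons. Both intragenic peaks were in its first intron. The first ran from 53119554 to 53119764, with its summit 1135 bp past the start, and had 3.44-fold enrichment (−log10 q 3.88). The second ran from 53120205 to 53120443, with its summit at 1830 bp, and had 4.38-fold enrichment (−log10 q 6.64). They were weak peaks of the list: 5.92% and 28.1% of all peaks had a lower fold enrichment. Their summits were 695 bp apart, and merging peaks within 500 bp of each other joins them into 1.

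The strongest Mstn peak lay downstream of the gene. It ran from 53143926 to 53144231, 25.6 kb from the start and in intergenic sequence, with 6.85-fold enrichment (−log10 q 21.7), and 76.1% of all peaks were weaker in fold. The nearest coding start was that of Mstn. A weaker neighbour with 3.46-fold enrichment had its summit 3170 bp farther on. The last pair of peaks, at 84.5 and 96.3 kb, had 4.36-fold and 4.68-fold enrichment and lay nearer to the start of 1700019A02Rik than to that of Mstn. All 6 Mstn peaks thus lay downstream of its start, and the 100 kb before the gene held none. The E-box CAGCTG is the kind of site that muscle regulatory factors such as Myod1 bind. It was within 50 bp of the summit in 3 of the 6 Mstn peaks. Over the 23 peaks it was in 4 (17.4%), near the 15.7% of all peaks. The middle of the E-box in the second intronic peak, printed above, was 0.5 bp from the summit.

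Gdf11, the relative of myostatin that acts in patterning of the embryo, lies on chromosome 10 from 128319351 to 128328774 on the minus strand, in a gene-dense stretch with 12 coding genes in the window. All 4 of its peaks were outside the gene, and each was nearest to the start of another gene. The peak with the highest fold enrichment of all 23 was one of them: it ran from 128414724 to 128415002, 86.1 kb upstream in intergenic sequence, with 9.59-fold enrichment (−log10 q 31.9). That value was above 91.6% of all peaks, at rank 1703, and the nearest coding start, that of Olfr9, was 12.0 kb away. Its neighbour, with a summit 2990 bp closer to Gdf11, had 5.41-fold enrichment and an E-box within 50 bp of the summit. The other two were at promoters of neighbours, 38 bp from a start of Sarnp (4.10-fold) and 143 bp from a start of Bloc1s1 (4.30-fold).

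No Pax7 peak was found within 100 kb of Inhba, on chromosome 13 from 16103684 to 16119044. The stretch without a summit around the gene spanned 1179 kb, contained 3 coding genes in whole or part and had no unsequenced bases, and 14.1% of coding genes lay in longer ones. The peaks that bound it were 346 kb upstream, in an intron of Gli3 with 7.82-fold enrichment, and 833 kb downstream, between genes with 5.16-fold enrichment. In counting peaks, 24.8% of coding genes had none in their windows.

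Fst encodes follistatin and lies on chromosome 13 from 115242470 to 115249159 on the minus strand. None of its 3 peaks was inside the gene or within 5 kb of its start, and all were at least 5-fold enriched. The strongest ran from 115152266 to 115152591, 96.7 kb downstream in an intron of Ndufs4, with 6.72-fold enrichment (−log10 q 18.5). The second was 80.2 kb downstream, also in an intron of Ndufs4, from 115168810 to 115168993, with 5.06-fold enrichment. This is the peak with the joined paired and homeodomain motif printed above, whose middle was 7 bp from the summit. The third, from 115278308 to 115278556, was 29.3 kb upstream between genes, again with 5.06-fold enrichment, and the start of Fst was the nearest coding start. The other two had the start of Ndufs4 as the nearest.

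The window edge matters for Fst. Just past it lay another peak in Ndufs4, from 115141704 to 115142043, with 6.45-fold enrichment, and 7 peaks lay between 100 and 200 kb from the gene, against 3 within 100 kb.

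The 2 type II receptors of the 7 genes had unlike surroundings. Acvr2b, a receptor through which myostatin acts, lies on chromosome 9 from 119311562 to 119342619 on the plus strand, and its 3 peaks were all upstream, at promoters of other genes, with none in the gene or after it. The farthest, from 119231845 to 119232156, was 79.6 kb upstream and 459 bp from a start of Oxsr1, with 7.68-fold enrichment (−log10 q 31.2), above 82.9% of all peaks in fold. The next, from 119249800 to 119250472, was the widest of the 23 at 673 bp, lay 444 bp from a start of Acaa1a in an intron of Myd88 and had 6.94-fold enrichment. The nearest to Acvr2b, 44.9 kb upstream from 119266483 to 119266732, was 87 bp from a start of Xylb, in an exon, with 5.44-fold enrichment. Downstream of the end of Acvr2b the next peak was 470 kb away.

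Acvr2a, on chromosome 2 from 48669629 to 48758789 on the plus strand, is the longest of the 7 genes at 89.2 kb and had no peak in the gene or within 100 kb. The stretch without a summit spanned 343 kb, and 32.9% of coding genes lay in longer ones. Just outside the window were peaks at 107 kb (5.28-fold) and 109 kb (5.81-fold) upstream, both with the start of Acvr2a as the nearest coding start, and one 147 kb past the end in Mbd5 (4.01-fold). Within 200 kb of the gene there were 6 peaks, and the strongest of them, 197 kb upstream, had 8.54-fold enrichment. The lack of a peak at Acvr2a therefore holds for the 100 kb window and not for the wider one, while Inhba had none in either.

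Smad7, which competes with receptor Smads and helps to remove activated receptors, lies on chromosome 18 from 75527183 to 75555589 on the plus strand and had the most peaks. For all 7 the nearest coding start was one of Smad7, although 4 of them lay inside other genes. Inside the gene, the strongest ran from 75535241 to 75535489 in the second of its 3 introns, 8.19 kb past the start, with 5.96-fold enrichment (−log10 q 17.3). It lay within 1 kb of the start of a noncoding Smad7 transcript and 5.74 kb from the nearest coding start. The others were in the third intron at 20.0 kb (4.32-fold) and in the last exon at 27.6 kb (4.08-fold), in untranslated sequence.

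Flanking Smad7, 2 peaks lay in introns of Dym upstream, at 94.9 kb (5.52-fold) and 88.8 kb (4.15-fold). A further 2 lay in introns of Ctif downstream, at 89.4 kb (5.93-fold) and 117 kb (5.83-fold) from the start of Smad7. The 7 values thus ran from 4.08 to 5.96, while those of Fst ran from 5.06 to 6.72 and those of Gdf11 from 4.10 to 9.59. Paired cores were present in 2 of the 7: in the upstream peak at 94.9 kb, 43.5 bp from the summit, and in the downstream peak at 117 kb, with one core 0.5 bp from the summit and a second 37.5 bp from it.

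Where the peaks lay relative to genes was described for all 23 together. In the classes used here, 6 peaks (26.1%, 95% Wilson interval 12.5 to 46.5) were within 1 kb of any annotated transcription start, beside 16.3% of all peaks, 9 (39.1%) were in introns beside 42.1%, 1 (4.35%) was in an exon beside 2.55%, and 7 (30.4%) were between genes beside 39.0%. The list share was inside the interval for the share near starts. Of these 6 peaks, 5 were at promoters of neighbouring coding genes (Sarnp, Bloc1s1, Oxsr1, Acaa1a and Xylb) and 1 was at the noncoding Smad7 transcript. None of the 7 genes had a Pax7 peak within 1 kb of a coding start of its own, which 13.2% of coding genes had.

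A peak inside the gene was found for 2 of the 7, Mstn and Smad7, beside 22.3% of coding genes. A peak nearest to a start of the gene itself was found for 3 of the 7 (Mstn, Fst and Smad7), beside 36.3% of coding genes. Counted by peak, 12 of the 23 (52.2%, interval 33.0 to 70.8) had the gene itself as the nearest coding start. Over all coding genes, 29.8% of the 58288 pairs of a gene and a peak in its window were such pairs. Smad7 gave 7 of the 12 and Mstn gave 4, while Gdf11 and Acvr2b gave none. Peaks at the same gene share its neighbours and are not independent. The interval is therefore too narrow, and whether the share differs from 29.8% was not tested. The share was 26.1% when the starts of all annotated genes, noncoding ones included, were used. The 29.8% rests on coding starts only, and no background for the 26.1% is given here.

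The paired core was within 50 bp of the summit in 4 of the 23 peaks, 17.4% (interval 6.98 to 37.1), beside 11.1% of all peaks and 1.24% and 1.31% of windows of the same width 500 bp to the left and right of all peaks. The share of all peaks lies inside the interval. All 4 had at least 5-fold enrichment: they were 4 of the 13 such peaks (30.8%, interval 12.7 to 57.6) and 0 of the 10 weaker ones (interval 0 to 27.8%), where over the list the shares were 12.8% and 9.06%. They were the Oxsr1 and Xylb promoter peaks near Acvr2b and 2 peaks beside Smad7. At least 2 cores in one window were found in 2 of the 23 peaks, at Oxsr1 and in Ctif, a form looked for after the sequences had been seen and present in 109 of all 20579 peaks (0.530%).

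The joined paired and homeodomain motif was in 1 of the 23 (4.35%, interval 0.772 to 21.0), the Fst peak, and in 2.10% of all peaks, and the homeodomain dimer was in none, beside 0.831%. Any of the 3 Pax motifs was present in 5 of the 23 (21.7%, interval 9.66 to 41.9) and in 13.7% of all peaks. The cAMP response element TGACGTCA, also chosen after the sequences were seen, was in 2 of the 23 and in 0.287% of all peaks. Of the 4 peaks with a paired core 1 held it, the Oxsr1 promoter peak, and of all peaks with a paired core 1.00% did. The remaining peak with it was the Mstn peak at 84.5 kb.

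Of the other sites, AP-1 was in 3 of the 23 (13.0%, interval 4.54 to 32.1), beside 4.78% of all peaks, and these lay at Fst and Smad7. Runx sites were in 4 (17.4%) beside 9.73%, E-boxes in 4 (17.4%) beside 15.7%, Tead sites in 2 (8.70%) beside 11.0%, and the control in 3 (13.0%) beside 6.86%. For each of these the share of all peaks lay inside the 95% interval of the 23, and the control was as frequent at the 7 genes as AP-1 was.

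**Figure D3:**
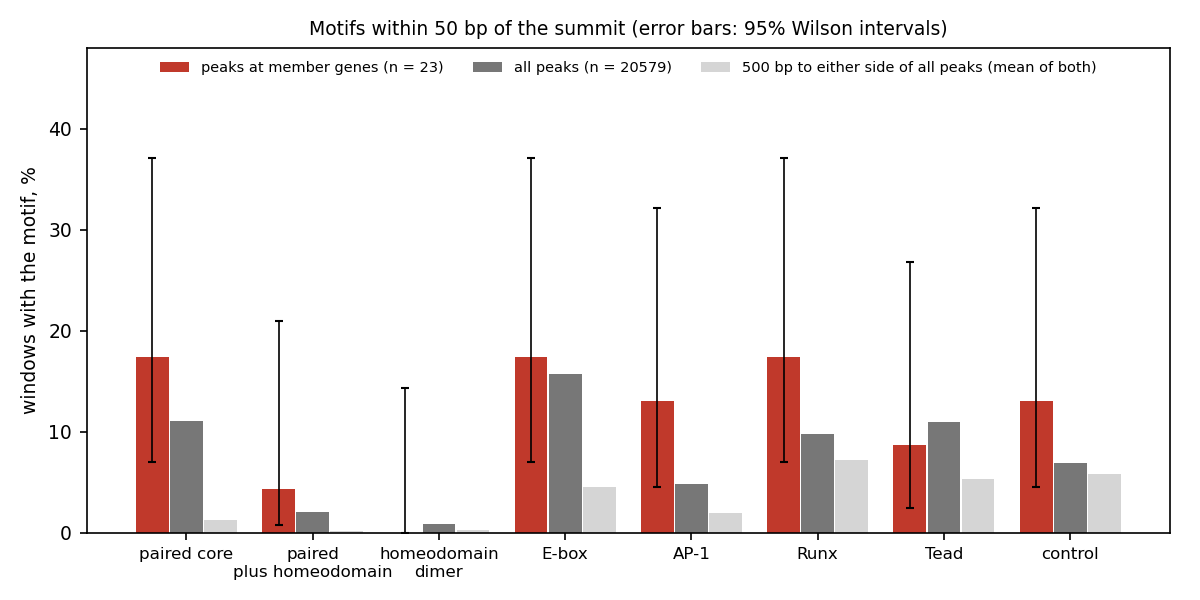
Bars give the percentage of windows from 50 bp before to 50 bp after the summit (y axis) that hold each motif (x axis) for the 23 peaks of the 7 genes in red with 95% Wilson intervals, for all 20579 peaks in dark grey, and for windows 500 bp to either side of all peaks in light grey. The red bars lie within intervals wide enough to take in the dark grey bar for the paired core, at 17.4% and 11.1%, as for the E-box, at 17.4% and 15.7%.

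The base composition and width of the 23 peaks were also described. Their GC content within 50 bp of the summit ran from 35.6% to 71.3% with a median of 50.5%, against a median of 45.5% over all peaks. The lowest value was shared by 3 Mstn peaks, the strongest and those at 84.5 and 96.3 kb, and the highest was that of the Xylb promoter peak. Widths had a median of 249 bp, against 252 bp.

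The rest of the pathway, a list of 32 further genes with known roles, had the same median number of peaks as the 7 genes, 3.00, with a range of 0 to 10. At least 1 peak lay within 100 kb of 30 of them, beside 5 of the 7 genes and 75.2% of coding genes. Gdf3, a ligand, and Dcn, an extracellular binding protein, had none. The neighbours Inhbc and Inhbe shared the same 3 peaks, which count for both, so the genes of this list are not independent. In 5 of the 32 a peak lay within 1 kb of a coding start of the gene, beside none of the 7 genes above and 13.2% of coding genes. These were the ligands Tgfb2 (2.98-fold) and Tgfb3 (3.97-fold and 3.48-fold), the receptor Smads Smad2 (3.29-fold) and Smad3 (4.56-fold), and the common partner Smad4 (6.48-fold). The Tgfb2 and Smad3 peaks were at coding starts inside the gene, 70.8 kb and 6.41 kb past the gene's own start. All but the Smad4 peak were below the median of all peaks.

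**Figure D4:**
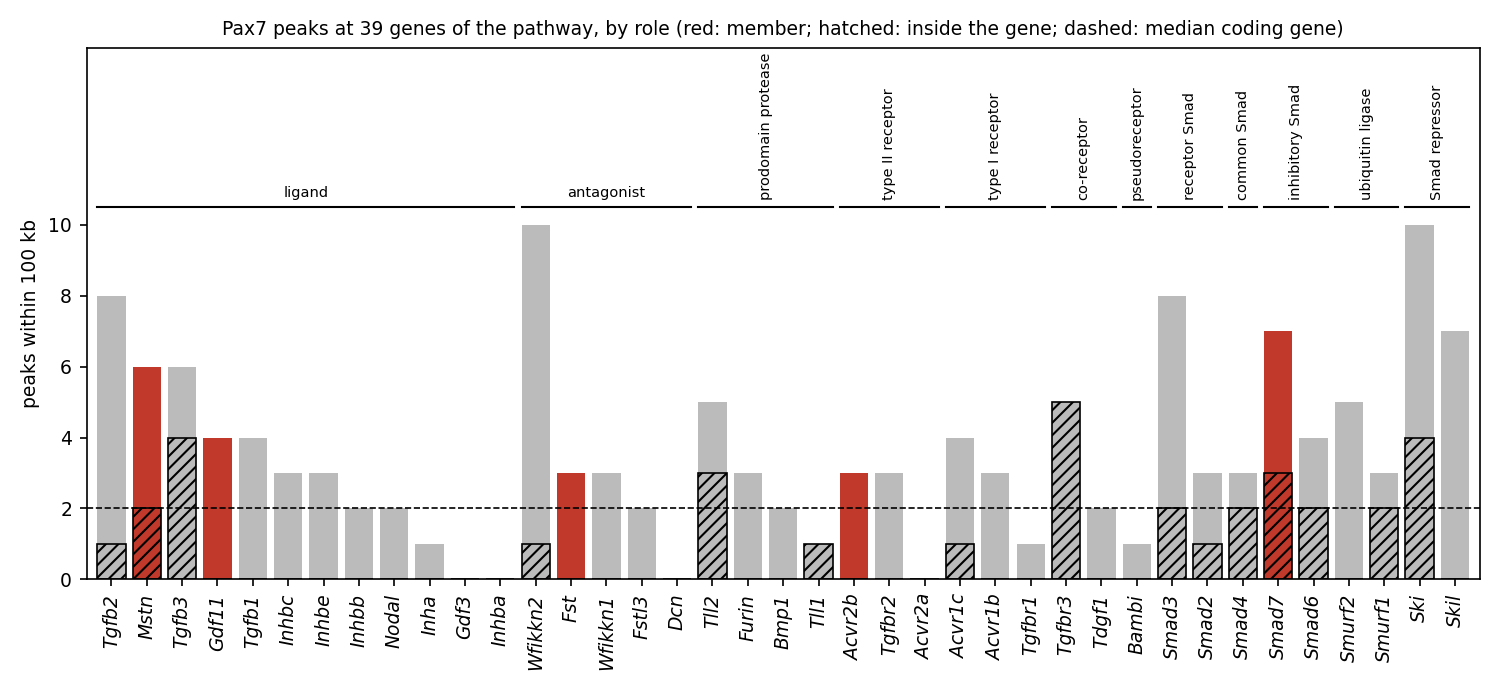
Bars give the number of Pax7 peaks with a summit within 100 kb (y axis) for 39 genes of the pathway (x axis), grouped by role, with the 7 genes described above in red, the peaks inside a gene hatched and the median coding gene, 2.00, as a dashed line. Wfikkn2 and Ski, at 10 peaks each, stand above Smad7 at 7 and Mstn at 6, and 4 genes have none.

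Peaks of at least 10-fold lay within 100 kb of 7 of the 32 genes, beside none of the 7 genes above and 15.0% of coding genes. The strongest of all was in Tgfbr3, the co-receptor betaglycan that binds TGF-β and inhibin. It ran from 107572518 to 107572993 on chromosome 5 in an intron, 10.8 kb from a coding start of the gene, with 19.6-fold enrichment (−log10 q 120), at rank 45 of the list. The type I receptor Acvr1b had peaks of 12.8-fold and 10.8-fold upstream, the second in an intron of its neighbour Acvrl1. Around Ski, a repressor of Smad-driven transcription, 2 peaks of 12.2-fold and 12.9-fold lay in introns of Morn1, and near its relative Skil 1 of 10.0-fold lay in an intron of Prkci.

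The other strong peaks were near the ligand Nodal (12.9-fold, in an intron of Lrrc20), the follistatin-like antagonist Fstl3 (11.1-fold, 984 bp from a start of Ptbp1) and the ubiquitin ligase Smurf2 (10.8-fold, 24 bp from a start of Gm885). A peak of 9.25-fold lay 40.3 kb downstream of Bambi, a pseudoreceptor without kinase activity, whose start was the nearest coding start. None of these strong peaks held the paired core, beside 11.1% of all peaks and 12.8% of all peaks of at least 5-fold. At such shares, so few peaks could all lack it.

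By role, and with all 39 genes counted together, the inhibitory Smads Smad7 and Smad6 had 7 and 4 peaks, the Smad repressors Ski and Skil had 10 and 7, and the ubiquitin ligases Smurf2 and Smurf1 had 5 and 3. For comparison, 43.1% of coding genes had at least 3 peaks, 29.8% at least 4, as many as Smad6, and 19.4% at least 5. At least 7 were found for 7.58%, at least 8 for 4.83% and at least 10, as many as Ski, for 2.03%. Per 100 kb of window, Ski, Skil, Smurf2, Smad6 and Smurf1 lay above 98.0%, 95.8%, 75.3%, 72.4% and 59.2% of coding genes. Of the 12 ligands 10 had a peak, beside 75.2% of coding genes, with 0 to 8 peaks per gene. Mstn at 6 was exceeded by Tgfb2, at 8, and matched by Tgfb3. Of the 5 antagonists 4 had a peak, again beside 75.2%. The 3 peaks of Fst compare with 10 at Wfikkn2, a secreted inhibitor of myostatin and Gdf11. Of the 3 type II receptors, Acvr2b and Tgfbr2 had 3 each and Acvr2a had none, and the 3 type I receptors had 1 to 4. These counts include peaks that lie nearer to other genes.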

How the data were processed

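Pax7 ChIP-seq libraries and input libraries (2 each) were made from Dox-treated iPax7 progenitors. According to the methods, single-end reads were placed on NCBIM37 with bowtie2, reads without a unique position and Picard duplicates were dropped, and both replicates were pooled for MACS2, where peaks with a q-value up to 0.01 were retained. The deposited list gives, for each peak, the fold enrichment, a ratio that the authors computed over the local background at the summit. It also gives the −log10 p and −log10 q deposited by the authors, an integer score that the authors derived from the −log10 q, and the summit position. Merging hides the spread between replicates, and depth per library is not in the list, so intervals cover counting error only. They treat peaks as independent, although peaks at the same gene share its surroundings.

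Summits were placed on GENCODE vM1 of the same build, with 1-based coordinates. Windows ran 100 kb to either side of each gene. Classes were assigned in the order within 1 kb of any annotated start, exon, intron, between genes. "Nearest coding start" used the starts of all protein-coding transcripts. Motifs were searched within 50 bp of the summit and 500 bp to either side. Sequences are from the NCBIM37 genome. The 7 genes and the list of 32 further genes were chosen with earlier results of these data known. Every peak of the 7 genes was described, and of the further genes those with a peak within 1 kb of a coding start or in the top 10% of all peaks by fold enrichment. The searches were tested on simulated data. Alternatives were windows of 25, 50 and 200 kb or around the start only, a −log10 q or fold enrichment of at least 5, merging within 500 bp, any overlap, nearest genes only, motif windows of 25 and 100 bp, and other sets of starts. The tools were samtools 1.23.1 and Python 3.11.15 with matplotlib 3.10.9, scipy 1.17.1, pandas 2.3.3 and numpy 2.4.6.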

Additional observations from a re-analysis of the deposited data

How the results depend on the processing

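The number of peaks at the 7 genes, 23, depended on the window and on which peaks were admitted: it was 7 within 25 kb, 10 within 50 kb, 46 within 200 kb, 13 at a fold enrichment of at least 5 and 12 when only peaks nearest to the gene's own start counted. The median fold enrichment, 5.06, was 4.32 within 25 kb and 4.35 within 50 kb, and the share of peaks of at least 5-fold, 56.5%, was 28.6% within 25 kb. The share whose nearest coding start was the gene itself, 52.2%, became 26.1% when the starts of all annotated genes were used. Under the other alternatives the count was 22 or 23, and the share with the paired core, 17.4%, was 13.0% within 25 bp and 17.4% within 100 bp of the summit. The strongest peak was the same by −log10 q in 5 of 5 genes.

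By gene, Mstn kept 4 peaks and Smad7 3 within 25 kb, and the other genes had none. Within 200 kb, Fst had 10 peaks, Gdf11, Mstn and Smad7 had 8 each, Acvr2a and Acvr2b had 6 each and Inhba had none. For windows other than 100 kb, no share of coding genes with a peak is given beside these counts. At a fold enrichment of at least 5, Mstn had 1 peak, Gdf11 had 2, Fst and Acvr2b had 3 each and Smad7 had 4.

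No paired analysis was possible because the replicates were merged before peaks were called. A region without a peak was not detected as bound at this depth, and a peak near a gene does not show which gene it acts on.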
